A study of Rattus norvegicus with 10 samples.

Results

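The enzymes that load amino acids onto transfer RNA were compared in fetal rat hearts from control and hyperglycemic pregnancies. Members were the genes whose deposited pathway annotation contained aminoacyl-tRNA biosynthesis and whose mean was at least 0.1 FPKM (reads divided by gene length and by library size) over the 10 libraries. This rule gave 45 of the 18025 listed genes, and no annotated gene was lost to the filter. They comprised 21 cytosolic synthetases, 17 mitochondrial synthetases, 6 enzymes of the pathway that are not synthetases, and Ears2l1, a copy of Ears2 whose reads may be shared with Ears2 and whose values are therefore uncertain. The files wrote 16 of the mitochondrial synthetases with a symbol ending in 2, and the other was listed as LOC100911305, which its NCBI Gene identifier names Mars2.

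Hearts were collected at embryonic day 19.5 from Sprague-Dawley pregnancies, with 5 libraries from dams given citric acid buffer (CON) and 5 from dams given streptozotocin in the same buffer (HG). Dams were 3 months old, were injected daily for 3 days and had normoglycemic mates, and HG dams had a non-fasting blood glucose above 16 mM at 7 days after injection. Streptozotocin destroys the insulin-producing cells of the pancreas, so the model is an insulin-deficient diabetes induced by a drug, and the sources differ on whether grouping came before or after mating. The labels tie no library to a dam or litter and give no fetal sex, so that p-values measure the spread between these libraries, which may be partly technical.

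Each aminoacyl-tRNA synthetase couples one amino acid, or in Eprs a pair of them, to its transfer RNA before the ribosome can use it. In animals the cytosol and the mitochondria mostly use separate nuclear genes for the same amino acid, while Gars and Kars each encode both the cytosolic and the mitochondrial enzyme. Several cytosolic synthetases are held together in the multisynthetase complex, and many cytosolic synthetase genes are known targets of ATF4, the transcription factor of the amino acid response. Heart muscle is rich in mitochondria, whose own ribosomes make subunits of the respiratory chain.

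Promoter sequences from RefSeq (build GRCr8, 250 bases before to 50 bases after the annotated start) matched 39 of the 45 members. Those of Ears2l1, Gars, Rars1 and Sepsecs were among the promoters not matched. The amino acid response motif, searched as TGATGNAA on both strands, lay in 7 of 18 matched cytosolic promoters (Aars1, Cars, Iars1, Mars1, Nars1, Tars1 and Yars1), in 0 of 16 mitochondrial promoters and in 0 of 5 of the other enzymes. The same letters lay in 3.82% of all 27457 promoters and in 2.1% of the 11733 tested genes with a promoter. Aars1 had 2 occurrences, and 7 of the 8 occurrences in members read TGATGCAA, a form found in 0.743% of promoters. A match describes letters and not a bound site. The stretches around the motif are shown for 4 of the genes whose values are given by library below, written 5′ to 3′ on the gene's strand with the motif or its reverse complement TTGCATCA in capitals, and 100 bases before the start of Wars1 are shown as a cytosolic promoter without it.
Cars (chr1:208225334-208225363, minus strand, motif from 17 bases after the start): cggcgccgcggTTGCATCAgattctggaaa
Yars1 (chr5:146820190-146820212, plus strand, motif from 38 bases after the start, at the end of the available sequence): acgagctcagcTGATGCAAcctg
Nars1 (chr18:60275778-60275807, minus strand, motif from 14 bases before the start): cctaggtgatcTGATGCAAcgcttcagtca
Iars1 (chr17:15193658-15193687, minus strand, motif from 24 bases before the start): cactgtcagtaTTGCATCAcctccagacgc
Wars1 (chr6:133571646-133571745, minus strand, no motif): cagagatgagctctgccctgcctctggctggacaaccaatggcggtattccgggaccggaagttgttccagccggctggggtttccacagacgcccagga

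Cytosolic synthetases were mostly higher in HG hearts and mitochondrial synthetases were not called in either direction. By limma with Benjamini-Hochberg adjustment over 14542 genes, at an adjusted p under 0.05, 15 of 21 cytosolic enzymes rose, 1 fell and 5 did not pass. Over all genes tested, 28.4% were called higher and 11.8% lower. Of the 17 mitochondrial enzymes, 0 were called by limma, with 1 higher and 1 lower (Fars2) at an unadjusted p under 0.05. Standard errors ran from 0.0377 to 0.123 in this class and from 0.0289 to 0.0676 in the cytosolic class. A change of the same size was therefore called less readily in many mitochondrial enzymes. Pars2 at 0.15 (SE 0.0829) was not called, whereas Kars at 0.11 (SE 0.0289) was. The median log2 fold change (HG minus CON) was 0.17 over the cytosolic enzymes, -0.01 over the mitochondrial enzymes and 0.09 over all genes tested. The changes were small: 0 of the 45 members passed the adjusted p with a change over 2-fold, which 1.94% of all genes did. In whole hearts a lower or higher amount of a transcript per cell and a different number of cells of a type cannot be told apart.

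The scaling of libraries bears on these counts. With median-of-ratios factors, which scale each library by the median ratio of its genes to their mean over libraries, the median of all genes moved from 0.09 to 0.01, and 7 cytosolic enzymes rose (Cars, Gars, Hars1, Iars1, Nars1, Tars1 and Yars1), 2 fell (Tars3 and Rars1), and the class median was 0.08. Under these factors 15.6% of all genes were called higher and 17.5% lower. The mitochondrial median was then -0.10, with Fars2 and Lars2 called lower, and voom, limma's method for read counts, called on the recovered reads 4 mitochondrial enzymes lower (Fars2, Hars2, Iars2 and Lars2). The cytosolic median lay above that of all genes and the mitochondrial median below it under each of the 4 scalings plotted here. Rescaling whole libraries moves all genes by nearly the same amount, so this order could hardly change and is not separate support from each scaling. The number of cytosolic enzymes called higher did change, from 7 to 15.

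**Figure D1:**
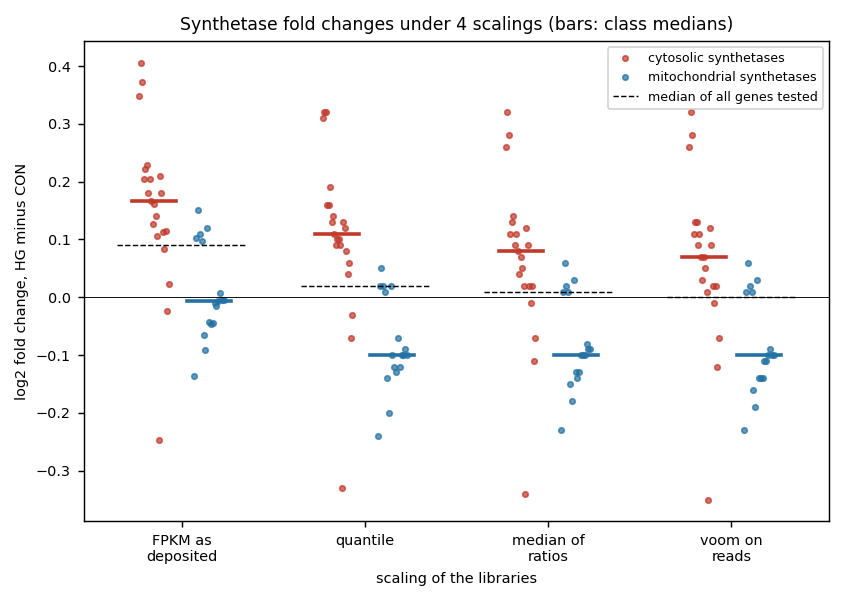
Log2 fold changes (HG minus CON, vertical axis) of the 21 cytosolic (red) and 17 mitochondrial (blue) synthetases under 4 scalings of the libraries, with class medians as bars and the median of all genes tested as a dashed line. The cytosolic median falls from 0.17 for FPKM as deposited to 0.08 with median-of-ratios factors, the mitochondrial median from -0.01 to -0.10, and the median of all genes from 0.09 to 0.01.

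Summed over the class, the cytosolic enzymes reached 708.3, 706.9, 709.1, 692.8 and 710.1 FPKM in the CON libraries and 804.0, 776.7, 784.8, 784.7 and 793.5 FPKM in the HG libraries. Every HG sum was above every CON sum, with means of 705.5 ± 7.16 and 788.8 ± 10.4 FPKM (SD, n = 5). The mitochondrial enzymes summed to 192.9, 191.9, 189.9, 198.4 and 193.1 FPKM in CON and to 189.5, 194.5, 191.1, 196.3 and 194.8 FPKM in HG, and these ranges overlapped almost entirely. Gars and Kars, which serve both compartments, were counted in the cytosolic sums only. Together they summed to 122.5 to 128.6 FPKM in CON and 142.1 to 147.0 FPKM in HG, so the split between classes depends on this choice. Both sets of class sums are on the deposited FPKM scale, where the median log2 fold change of all genes was itself 0.09. They were not computed with the other scalings, which would move the sums of both classes. Per length, cytosolic enzymes were the more abundant class, with a median level of 34.4 FPKM (9.04 to 86.7) against 9.38 FPKM (2.09 to 32.5) for mitochondrial enzymes.

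**Figure D2:**
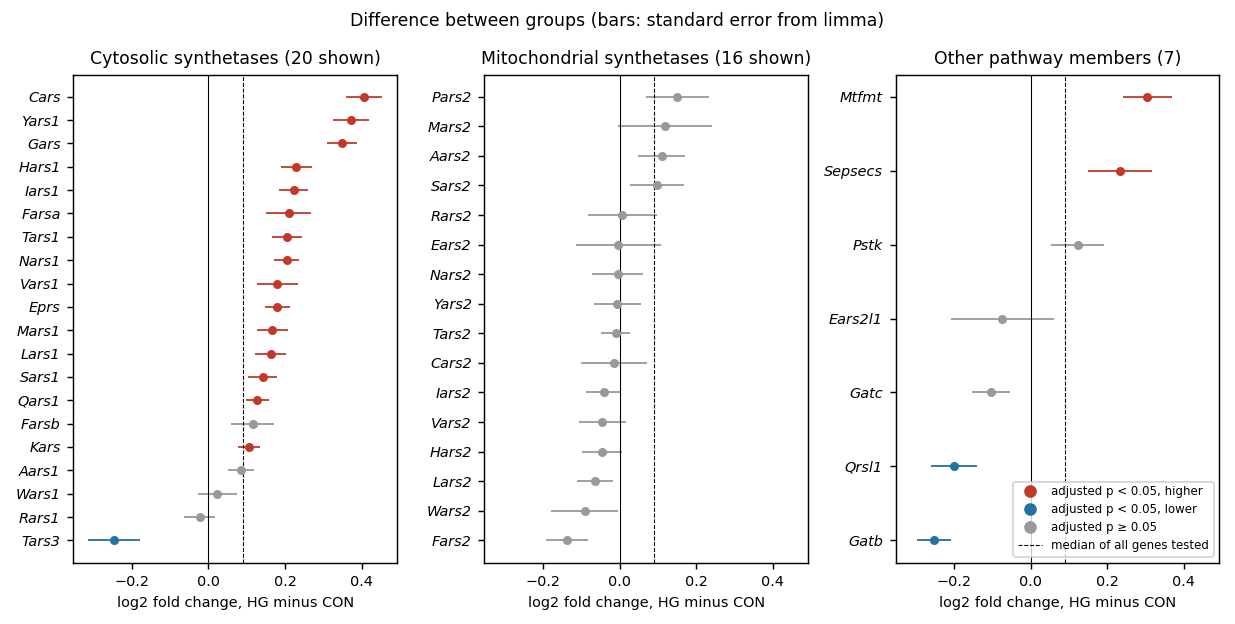
Log2 fold change (HG minus CON, horizontal axis) of 43 of the 45 members with its standard error from limma, by class, on the deposited FPKM scale. Red and blue points passed the adjusted p as higher and lower, grey points did not, and the dashed line is the median of all genes tested (0.09). Cytosolic enzymes run from -0.25 (Tars3) to 0.41 (Cars), and all 16 mitochondrial enzymes drawn are grey, from -0.14 (Fars2) to 0.15 (Pars2).

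Gars, Cars and Yars1, the glycyl, cysteinyl and tyrosyl enzymes, had the smallest adjusted p-values of the class and the greatest increases. Gars (NCBI Gene 297113) measured 42.9, 44.8, 43.0, 40.1 and 43.6 FPKM in CON and 56.0, 54.9, 54.3, 56.4 and 51.3 FPKM in HG. Its lowest HG library was above its highest CON library, and the mean rose by 27.4%, a log2 fold change of 0.35 (SE 0.0394, adjusted p = 4.22e-05 by limma). Because Gars serves both compartments, this transcript also supplies mitochondrial glycyl-tRNA synthetase.

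Cars (293638) measured 10.9, 10.6, 11.1, 11 and 11.9 FPKM in CON and 15, 15.1, 15.2, 13.5 and 15 FPKM in HG. The groups did not overlap, although the fourth HG library lay well under the other HG libraries, and the log2 fold change was 0.41 (SE 0.048, adjusted p = 5.75e-05 by limma). Yars1 (313047) measured 30.4, 30.5, 30.8, 28.4 and 30 FPKM in CON and 42.8, 39.1, 37.2, 39.3 and 36.1 FPKM in HG. It too was higher in every HG library, by 0.37 on the log2 scale (SE 0.047, adjusted p = 8.94e-05 by limma). With median-of-ratios factors the log2 fold changes of Gars, Cars and Yars1 were 0.26, 0.32 and 0.28, and all passed.

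Nars1 and Iars1, the asparaginyl and isoleucyl enzymes, followed. Nars1 (291556) measured 38.3, 38.4, 38.1, 36.9 and 36.5 FPKM in CON and 43.0, 41.6, 44.6, 44.3 and 43.5 FPKM in HG (log2 fold change 0.20, SE 0.0332, adjusted p = 0.000498 by limma). Iars1 (306804) measured 21.4, 22.2, 22.7, 21.9 and 23.1 FPKM in CON and 27.3, 26.2, 25.0, 25.9 and 25.5 FPKM in HG (log2 fold change 0.22, SE 0.0376, adjusted p = 0.000659 by limma). Neither gene overlapped between groups, and both kept their call with median-of-ratios factors, at 0.11 and 0.13.

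**Figure D3:**
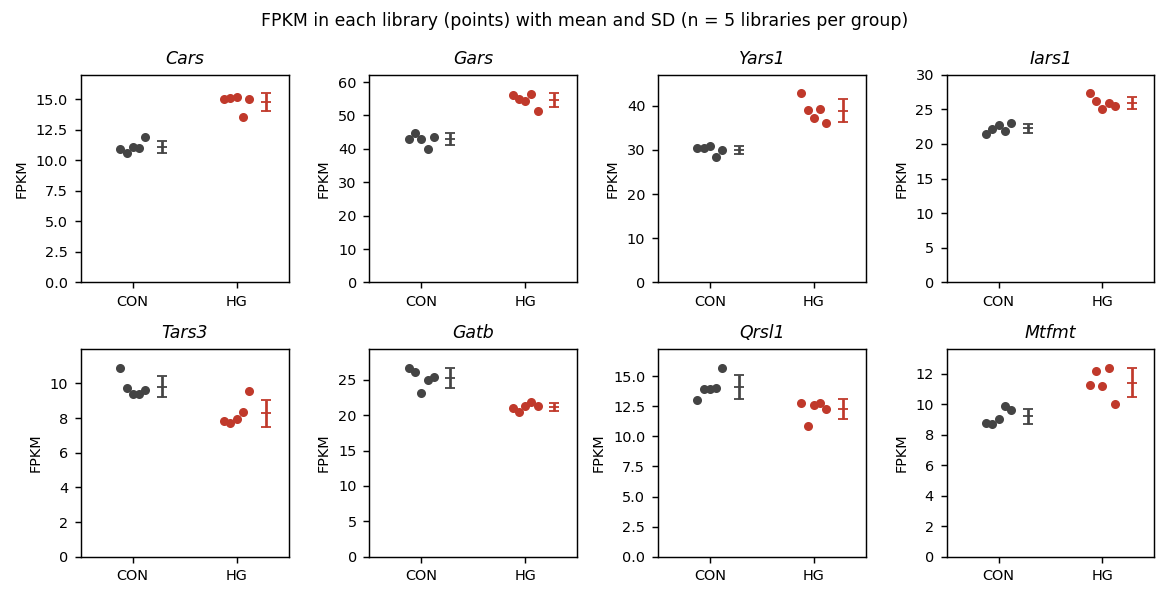
FPKM (vertical axes, from 0) in each of the 5 CON (grey) and 5 HG (red) libraries for 8 members, with the mean and SD beside the points. Cars, Gars, Yars1, Iars1 and Mtfmt are higher and Gatb and Qrsl1 lower in every HG library, whereas the fifth HG library of Tars3 (9.56 FPKM) lies among the CON libraries.

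The other called increases were smaller than those of Gars, Cars and Yars1. Hars1 rose by 0.23, Farsa by 0.21, Tars1 by 0.20, Eprs by 0.18, Vars1 by 0.18, Mars1 by 0.17, Lars1 by 0.16, Sars1 by 0.14 and Qars1 by 0.13 on the log2 scale, with adjusted p-values from 0.000833 (Hars1) to 0.0198 (Vars1). They charge histidine, phenylalanine (Farsa is the alpha subunit), threonine, glutamate with proline (Eprs), valine, methionine, leucine, serine and glutamine. Of these 9, Hars1 and Tars1 kept their call with median-of-ratios factors.

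Kars, the lysyl enzyme of both compartments, was the most abundant member. Kars (292028) measured 85.7, 81.0, 85.3, 82.4 and 82.9 FPKM in CON and 89.9, 88.4, 89.7, 90.5 and 90.7 FPKM in HG. The groups were separate but close, with a log2 fold change of 0.11 (SE 0.0289, adjusted p = 0.0112 by limma), which was 0.02 and did not pass (adjusted p = 0.74) with median-of-ratios factors.

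In 12 cytosolic enzymes every HG library was above every CON library and in 0 it was below, against 19.3% and 8.12% of all genes tested. Sars1, Farsa and Vars1 passed the test although their groups overlapped. Aars1 (alanyl, 0.08, adjusted p = 0.0675) and Farsb (the beta subunit of the phenylalanyl enzyme, adjusted p = 0.126) did not pass. For Aars1 the log2 fold change had the opposite sign with median-of-ratios factors.

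Tars3, a second cytosolic threonyl-tRNA synthetase and the least abundant of the class, was the exception. Tars3 (308701) measured 10.9, 9.76, 9.38, 9.41 and 9.61 FPKM in CON and 7.82, 7.69, 7.92, 8.35 and 9.56 FPKM in HG. Its groups overlapped through the fifth HG library alone, and its mean dropped by 15.7% (log2 fold change -0.25, SE 0.0676, adjusted p = 0.0119 by limma). Tars1, which charges the same transfer RNA, rose.

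Rars1 and Wars1, the arginyl and tryptophanyl enzymes, had nearly equal group means. Rars1 (287191) measured 43.1, 41.0, 42.4, 40.8 and 43.9 FPKM in CON and 41.6, 39.6, 41.8, 40.3 and 44.8 FPKM in HG (log2 fold change -0.02, SE 0.0401, adjusted p = 0.684 by limma), and was called lower only with median-of-ratios factors (-0.11, adjusted p = 0.0341) and with voom. Wars1 (314442) measured 29.8, 27.7, 28.6, 27.7 and 29.4 FPKM in CON and 31.7, 29.6, 27.9, 30.3 and 26.1 FPKM in HG. It had the largest adjusted p of the cytosolic enzymes (log2 fold change 0.02, SE 0.0516, adjusted p = 0.759 by limma), and the sign turned with median-of-ratios factors.

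By complex membership, 6 of the 8 enzymes of the multisynthetase complex rose (Eprs, Iars1, Kars, Lars1, Mars1 and Qars1), with a median of 0.14, and 9 of the 13 cytosolic enzymes outside it rose and 1 fell, with a median of 0.20. With median-of-ratios factors, 1 complex enzyme rose and 1 fell (median 0.05), and 6 of those outside rose and 1 fell (median 0.11). By catalytic class, 8 of 10 class I cytosolic enzymes rose and 0 fell (3 and 1 with median-of-ratios factors), and 7 of 11 class II enzymes rose and 1 fell (4 and 1 with median-of-ratios factors). Among the 7 cytosolic genes with the promoter motif, 6 rose (5 with median-of-ratios factors), with a median of 0.20. Among the 11 whose promoter lacked these letters, 8 rose and 1 fell (1 and 1 with median-of-ratios factors), with a median of 0.14. For comparison, 28.4% of all genes tested were called higher and 11.8% lower, with a median of 0.09. With median-of-ratios factors these were 15.6%, 17.5% and 0.01, so that 1 of 8 complex enzymes was not more than the share of all genes. The subset counts are descriptions, and no difference between the subsets was tested.

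Among mitochondrial synthetases, the smallest adjusted p belonged to Fars2, the phenylalanyl enzyme. Fars2 measured 4.94, 4.74, 5.03, 4.92 and 5.06 FPKM in CON and 4.41, 4.37, 4.46, 4.82 and 4.38 FPKM in HG (log2 fold change -0.14, SE 0.0543, adjusted p = 0.0628 by limma). A single HG library, the fourth, reached into the CON range, and with median-of-ratios factors the value passed at -0.23 (adjusted p = 0.00866).

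The next lowest mitochondrial adjusted p-values with a negative sign were those of the leucyl, tryptophanyl, isoleucyl and histidyl enzymes. Lars2 measured 14.6, 16.0, 15, 14.8 and 15.4 FPKM in CON and 14.1, 15.2, 13.5, 14.3 and 15.3 FPKM in HG (adjusted p = 0.302). Wars2 measured 5.07, 4.02, 4.26, 4.26 and 4.44 FPKM in CON and 3.43, 4.20, 4.42, 4.11 and 4.54 FPKM in HG (adjusted p = 0.439). Both overlapped between groups, and Lars2 passed with median-of-ratios factors (-0.15, adjusted p = 0.0231). Iars2, the most abundant mitochondrial enzyme, measured 35.3, 32.7, 32.7, 32.8 and 31.4 FPKM in CON and 29.7, 33.8, 31.4, 33.5 and 31.7 FPKM in HG (adjusted p = 0.483). Hars2 measured 19.3, 20.8, 18.3, 20.6 and 19.3 FPKM in CON and 18.0, 17.9, 18.9, 20.1 and 20.2 FPKM in HG (adjusted p = 0.506). The groups of both overlapped. Hars2 and Hars1 lie head to head on chromosome 18 in the RefSeq promoter table, where their promoter windows overlap on opposite strands, and Hars1 rose while Hars2 was not called.

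With a positive sign, the prolyl, alanyl, seryl and methionyl enzymes were among those with the smallest adjusted p-values. Pars2 measured 4.46, 5.00, 5.59, 5.55 and 4.48 FPKM in CON and 6.04, 5.67, 5.35, 5.81 and 4.96 FPKM in HG (log2 fold change 0.15, adjusted p = 0.17). Its groups overlapped, as did those of the other 3. Aars2 measured 10.9, 10, 11.1, 12.8 and 12.1 FPKM in CON and 12.2, 12.5, 12.3, 12.1 and 12.2 FPKM in HG (0.11, adjusted p = 0.175), with HG libraries close together inside the CON range. Sars2 measured 10.6, 12, 12.3, 11.6 and 11.8 FPKM in CON and 13.8, 13.4, 12.4, 12.3 and 10.6 FPKM in HG (adjusted p = 0.293). Mars2 measured 4.55, 3.45, 4.04, 3.68 and 2.59 FPKM in CON and 3.63, 3.99, 4.15, 3.71 and 4.13 FPKM in HG (adjusted p = 0.475). Mars2 varied by 0.729 FPKM (SD) among CON libraries, more than the difference between the group means of 3.66 and 3.92 FPKM.

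The remaining mitochondrial enzymes, Vars2, Tars2, Cars2, Yars2, Rars2, Nars2 and Ears2, had adjusted p-values from 0.602 to 0.982. Rars2, the least abundant, measured 2.14, 2.26, 1.99, 1.91 and 2.09 FPKM in CON and 1.99, 1.81, 2.19, 2.11 and 2.38 FPKM in HG. Ears2, with the largest adjusted p, measured 5.37, 5.83, 4.77, 6.40 and 4.84 FPKM in CON and 6.15, 6.48, 4.50, 5.02 and 5.07 FPKM in HG, with a mean of 5.44 FPKM in both groups. Its copy Ears2l1, at 1.74 to 3.07 FPKM in CON and 2.00 to 2.70 FPKM in HG, was not called either (adjusted p = 0.696).

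A ratio of the cytosolic to the mitochondrial enzyme for the same amino acid, taken within each library, does not depend on the scaling of libraries. Over 18 pairs covering 17 amino acids, in which Eprs and Fars2 each served in a pair of ratios, 7 ratios were higher in every HG library than in any CON library, 0 were lower and 11 overlapped. Taking every tested gene in place of the cytosolic enzyme, 13.6% of the ratios were higher without overlap. This share differed between mitochondrial enzymes, from 1.55% against Mars2 to 32.5% against Fars2. The difference was above 0 in 16 of 18 pairs, with a median of 0.215 on the log2 scale. The log2 fold change itself was above 0 in 9518 of all 14542 genes on the deposited FPKM scale. Its median was 0.09 over all genes and -0.01 over mitochondrial enzymes, so that many genes set against a mitochondrial enzyme would also differ upward. The share of such ratios above 0 was not computed.

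The log2 ratio of Cars to Cars2 was 1.98, 1.95, 1.99, 2.02 and 2.06 in CON and 2.69, 2.27, 2.38, 2.44 and 2.34 in HG, a mean increase of 0.43. That of Yars1 to Yars2 was 1.30, 1.48, 1.34, 1.27 and 1.13 in CON and 1.73, 1.75, 1.55, 1.72 and 1.65 in HG, a mean increase of 0.38. That of Farsa to Fars2 was 1.56, 1.61, 1.56, 1.66 and 1.52 in CON and 2.00, 1.85, 2.11, 1.67 and 2.02 in HG, a mean increase of 0.35. These 3 pairs had the greatest differences, and the separation was narrowest for Farsa to Fars2, where 32.5% of all genes set against Fars2 were also higher without overlap (10.5% against Cars2 and 11.3% against Yars2). The ratios of Hars1, Iars1, Lars1 and Tars1 to their mitochondrial counterparts were also separate, with increases of 0.28, 0.27, 0.23 and 0.22. Of all genes set against Hars2, Iars2, Lars2 and Tars2, 18.7%, 17.6%, 22.1% and 17.8% were also higher without overlap. The ratios of Rars1 and Aars1 each had a difference of -0.03, with overlapping groups.

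**Figure D4:**
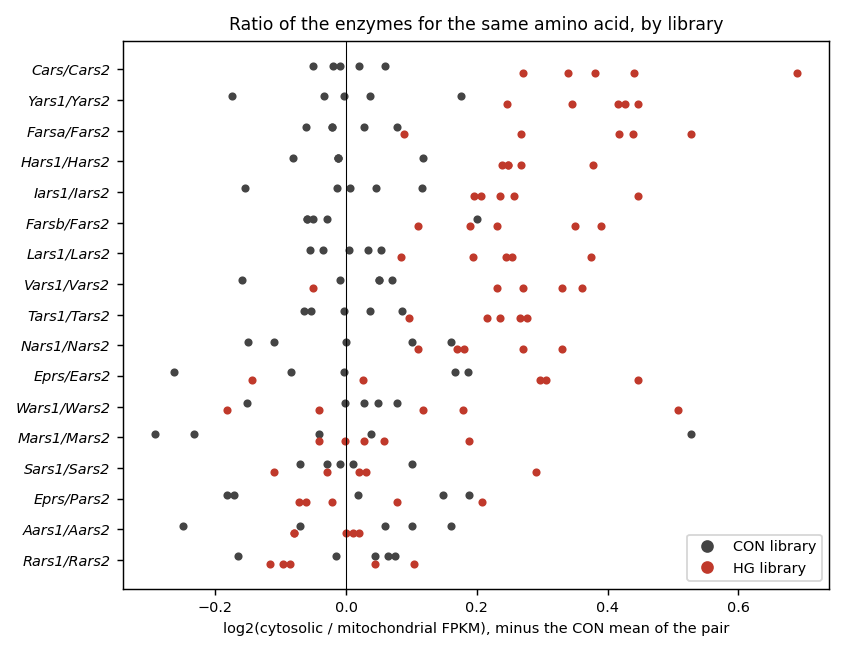
Log2 ratio of the cytosolic to the mitochondrial enzyme in each CON (grey) and HG (red) library, with the CON mean of each pair subtracted (horizontal axis, 17 of the 18 pairs) and pairs ordered by their difference. In 7 pairs all HG points lie to the right of all CON points, from Cars/Cars2 (mean difference 0.43) to Tars1/Tars2 (0.22), and at the bottom Aars1/Aars2 and Rars1/Rars2 lie at -0.03.

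The 6 other enzymes act on transfer RNA that is already charged, and moved in both directions. The heterotrimeric amidotransferase of Qrsl1, Gatb and Gatc converts glutamate on mitochondrial transfer RNA to glutamine, as mitochondria lack a glutaminyl enzyme. Gatb (361974) measured 26.7, 26.1, 23.1, 24.9 and 25.4 FPKM in CON and 21, 20.4, 21.3, 21.8 and 21.3 FPKM in HG. Every HG library was lower, and the mean dropped by 16.0% (log2 fold change -0.25, SE 0.0439, adjusted p = 0.000794 by limma). Qrsl1 (309911), the catalytic subunit, measured 13.0, 13.9, 13.9, 14.0 and 15.7 FPKM in CON and 12.8, 10.9, 12.6, 12.8 and 12.3 FPKM in HG. It fell without overlap as well (log2 fold change -0.20, SE 0.0599, adjusted p = 0.019 by limma), while Gatc was at -0.10 (adjusted p = 0.111) and passed with median-of-ratios factors (-0.19, adjusted p = 0.0148).

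Mtfmt (315763), which formylates the methionyl-tRNA that starts mitochondrial translation, measured 8.80, 8.73, 9.03, 9.87 and 9.62 FPKM in CON and 11.3, 12.2, 11.2, 12.4 and 9.99 FPKM in HG. It rose without overlap, by 0.30 on the log2 scale (SE 0.0636, adjusted p = 0.00255 by limma), and just missed the threshold with voom (adjusted p = 0.0574). Sepsecs (679383), the last enzyme on the route to selenocysteinyl-tRNA, measured 4.08, 5.48, 4.48, 4.18 and 4.56 FPKM in CON and 5.29, 4.74, 5.38, 5.67 and 5.69 FPKM in HG. Its groups overlapped and its adjusted p of 0.0438 lay just inside the threshold (log2 fold change 0.23, SE 0.0846, limma). The call was lost when any 1 of 8 of the 10 libraries was left out (all but the second of each group), with adjusted p-values up to 0.103. Pstk, the kinase before it on that route, did not pass (0.12, adjusted p = 0.181).

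Partners of the enzymes did not move together. Over all genes tested, 28.4% were called higher and 11.8% lower. The 2 of 7 proofreading genes called higher below are close to that share. These lists are short, and their counts were not tested against the shares of all genes. The non-enzyme scaffold of the multisynthetase complex had 0 of 3 genes higher and 2 lower: Aimp2 (43.8 ± 1.99 to 37.7 ± 3.74 FPKM, SD, n = 5; adjusted p = 0.0161 by limma) and Aimp1 (45.1 ± 2.57 to 39.9 ± 2.84 FPKM; adjusted p = 0.0229). Of 7 genes that proofread or release misloaded transfer RNA, 2 rose: Dtd1, a D-aminoacyl-tRNA deacylase (0.33, adjusted p = 0.000903), and Ptrh2 (0.22, adjusted p = 0.00576), of which Ptrh2 did not pass with median-of-ratios factors (0.13, adjusted p = 0.0863). Of 5 genes of elongation factor 1, which takes charged transfer RNA to the ribosome, Eef1b2 rose (0.26, adjusted p = 0.0017) and Eef1a2, the isoform of the alpha subunit found in adult muscle and nerve, dropped from 265.4 ± 11.7 to 129.6 ± 9.61 FPKM (SD, n = 5; log2 fold change -1.04, adjusted p = 2e-07 by limma). Of 5 genes of mitochondrial elongation and initiation, Tufm, which carries charged transfer RNA in mitochondria, fell (156.1 to 136.7 FPKM, adjusted p = 0.000855) and the others did not pass.

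Of 15 tested genes of the amino acid response, 9 rose and 1 fell, with a median of 0.31. With median-of-ratios factors again 9 rose and 1 fell, and the median was 0.22. Among all genes tested, 28.4% were called higher and 11.8% lower, or 15.6% and 17.5% with median-of-ratios factors. Atf4 itself, named outside the rule for named genes after its values were seen, measured 99.4, 98.7, 99.1, 95.8 and 96.6 FPKM in CON and 120.0, 119.1, 115.8, 125.7 and 120.9 FPKM in HG, without overlap (log2 fold change 0.30, SE 0.0308, adjusted p = 2.33e-05 by limma). Asns, asparagine synthetase, rose from 4.63 ± 0.126 to 9.72 ± 0.521 FPKM (SD, n = 5; log2 fold change 1.05, adjusted p = 2e-07). The serine synthesis genes Phgdh (1.02, adjusted p = 1.09e-06) and Psat1 (0.73, adjusted p = 3.76e-06) also rose. Ddit3, a stress-induced transcription factor, fell (-0.35, adjusted p = 0.0126). Slc7a11 was under the filter.

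Reads recovered on genes were 17639895 to 18240006 in CON and 16672876 to 19109844 in HG libraries, and 56 to 4798 reads per library lay behind each member. The heart label held for its markers, as all 10 cardiomyocyte genes were detected, summing to 28124.2 to 29691.9 FPKM in CON and 24020.4 to 27918.7 FPKM in HG, with 1 called higher and 6 lower. Red cell genes (3 of 13 higher, 9 lower) summed to 10578.0 to 19994.3 FPKM in CON and 8338.5 to 11684.2 FPKM in HG, liver genes (0 of 7 higher, 4 lower) to 3.15 to 80.7 and 1.33 to 2.71 FPKM, with the third CON library highest, and proliferation genes (5 of 5 higher) to 255.7 to 285.2 and 365.3 to 409.7 FPKM. Fibroblast genes summed to 1465.4 to 1691.7 and 1353.7 to 1541.6 FPKM (1 higher and 2 lower of 5, and 4 lower with median-of-ratios factors), endothelial genes to 210.3 to 228.0 and 214.7 to 230.2 FPKM (1 higher of 5, and also 1 lower with median-of-ratios factors), and macrophage genes to 27.6 to 34.5 and 32.1 to 42.3 FPKM (2 higher of 5, 1 with median-of-ratios factors). Skeletal muscle genes stayed under 1 FPKM in sum (Myog, the 1 tested, was higher), and lung epithelium genes were at or near 0, with 0 tested. Without the third CON library, in which liver genes were highest, 15 cytosolic enzymes were called higher and 1 lower. The part of the red cell, cardiomyocyte, proliferation and other marker shifts in the synthetase differences was not tested.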

How the data were processed

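Stranded mRNA libraries of 10 fetal hearts (5 CON, 5 HG, grouped by title) were made by the authors, who deposited 1 table of FPKM with pathway annotations. The submitters' processing notes name fastp, HISAT2, HTSeq, R 3.2.0 and the build mRatBN7.2; the annotation release is not given in the sources used here. The methods describe RNA pooled from the samples, yet the deposited columns differ between libraries. FPKM divides reads by library total, so that a few abundant genes can shift all others: the 10 most abundant held 10.6% ± 0.621 (SD, n = 5) of the FPKM of CON libraries and 8.86% ± 0.431 of HG libraries (two-sided exact permutation test, p = 0.00794, the smallest possible). All values were whole multiples of 1 read (100% of genes, tolerance 0.02 reads), which gave the reads.

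The 14542 genes that averaged 0.1 FPKM or more were transformed to log2(FPKM + 0.1), a scale that understates changes of low genes, and compared with limma 3.58.1 (trend, two-sided, Benjamini-Hochberg) in R 4.3.3. The study's DESeq takes counts and was not used. A gene was called at an adjusted p under 0.05. On simulated data, 25 of 50 changes of 0.25 and 48 of 50 of 0.5 (log2) were recovered among 14542 genes, with 7 unchanged genes called. The 200 changed genes went up and down in equal number, with a fixed spread between libraries and no built-in shift of composition. The 7 calls therefore do not cover errors that arise from the scaling of libraries. Tables were read with Python 3.11.15 and pandas 2.3.3.

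Of the members, 2 are counted but not reported here by name. Members and lists were chosen with earlier results of these data known. Values by library are given for the 5 members of each synthetase class with the smallest adjusted p in each direction, called members that are not synthetases, and the extremes of adjusted p and level, and, from other lists, for up to 3 called genes in each direction, without the libraries. The test was repeated with each library left out, with median-of-ratios factors, with quantile normalization, with voom on recovered reads, with a block for the replicate number, with a pseudocount of 1 or 0.01, and with the filter at 1 FPKM or absent. Promoters came from RefSeq (GRCr8); no coordinates of the files' build were used.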

Additional observations from a re-analysis of the deposited data

Results flagged for a closer look

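Of 90 groups of 5 libraries (45 members in CON and HG), 4 held a library far from the other 4, and chance alone gives about 1 in 20 groups. Cars was lowest in HG replicate 4, at 13.5 FPKM against 15 to 15.2 in the other HG libraries. Fars2 was highest in HG replicate 4, at 4.82 FPKM against 4.37 to 4.46. Qars1 was lowest in HG replicate 4, at 55.2 FPKM against 57.7 to 58.7. Tars3 was highest in CON replicate 1, at 10.9 FPKM against 9.38 to 9.76. In Cars, Fars2 and Qars1 the distant library lay on the side of the CON values, and without HG replicate 4 Fars2 was called lower by limma.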

How the results depend on the processing

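Pseudocounts of 1 and 0.01 and a filter at 1 FPKM changed no member's call. With median-of-ratios factors, 8 members were called higher and 7 lower (9 cytosolic, 7 higher and 2 lower; 2 mitochondrial, both lower; 1 other enzyme higher). With quantile normalization 6 members were called lower, 2 of them mitochondrial, and 1 other enzyme higher. With voom on recovered reads 7 were called higher and 9 lower (9 cytosolic, 7 higher and 2 lower; 4 mitochondrial, all lower; 0 other enzymes higher). With no filter 1 other enzyme was called higher. With the replicate number as a block, 18 members were called against 20, with Sepsecs and Vars1 not called and 1 other enzyme higher. Same-numbered libraries correlated at -0.126 to 0.108 in their deviations and none best with its own number. These values gave no sign that the numbers pair the libraries, but so few correlations cannot exclude a weak pairing. Leaving out 1 library gave 19 to 22 members called, 0 to 1 mitochondrial enzymes called (0 to 1 higher, with 1 without CON replicate 4, Aars2, and 1 without CON replicate 5; 0 to 1 lower, Fars2 without HG replicate 4), 1 to 2 other enzymes higher, and 7 to 9 separate ratios. Some log2 fold changes near 0, of genes not called, turned sign. Aars1 was -0.006 with median-of-ratios factors and -0.010 with voom. Rars2 was -0.079, -0.100 and -0.091 and Wars1 -0.068, -0.032 and -0.071 with median-of-ratios factors, quantile normalization and voom. With 1 library left out, Cars2 ranged from -0.059 to 0.043, Ears2 from -0.069 to 0.061, Ears2l1 from -0.180 to 0.017, Nars2 from -0.037 to 0.029, Rars2 from -0.038 to 0.057, Tars2 from -0.028 to 0.008, Wars1 from -0.009 to 0.061 and Yars2 from -0.045 to 0.038. The cause was not tested.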
